A study of Rattus norvegicus with 6 samples.

Results

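The endothelium is the cell layer that lines blood vessels, and 10 genes that mark it or carry its growth signals were examined in rat sciatic nerve. The genes are Pecam1, Cdh5, Kdr, Flt1, Tek, Tie1, Angpt1, Angpt2, Vegfa and Vwf. They were chosen by symbol, with earlier results of these data known. A row was found for 9 of them among the 30957 genes of the mRNA table, and all 9 were among the 15195 genes tested. Pecam1 had no row under that symbol and was not analysed here.

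The study sequenced total RNA of sciatic nerve from 1-month-old Sprague-Dawley rats in 3 groups of 2 libraries, each library from 1 rat. The D4 and D7 groups were taken 4 and 7 days after the left sciatic nerve was crushed with hemostatic forceps. The labels call the control rats normal controls, whereas the methods describe the same operation without the clamp. The libraries of each group carry the letters a and b, and a shared letter does not mean a shared rat. Whole nerve was used, so that nerve fibers, sheaths and attached tissue contribute RNA together, and with 2 rats per group p-values measure only the spread between these animals. In bulk RNA, fewer endothelial cells, less RNA per cell and a larger share of RNA from other cells cannot be told apart.

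Vessels of a peripheral nerve run through its outer sheath and between the fibers, where the endothelium forms part of the barrier between blood and nerve. Growth of endothelium is driven by Vegfa through the receptor Kdr, while Flt1 binds the same ligand tightly and signals weakly. The angiopoietins act on a second receptor system: Angpt1 activates Tek, Angpt2 is a context-dependent antagonist made largely by endothelium, and Tie1 is a partner receptor of Tek with no ligand of its own among the angiopoietins. Cdh5 is the adhesion molecule of endothelial junctions, and Vwf is the clotting factor that endothelium stores and releases.

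The upstream sequences of a receptor from each system are shown because Kdr mRNA fell after the crush and Tie1 mRNA did not pass the test. RefSeq windows of the GRCr8 build were found for 4 of the 10 genes, and only the bases before the annotated gene were kept, which left none for Flt1. The Kdr sequence of 218 bases lies at chr14:32571813-32572030 on the plus strand, and the Tie1 sequence of 184 bases lies at chr5:137305048-137305231 on the minus strand. Capitals mark GGAAG, the core of sites bound by ETS factors, or its reverse complement CTTCC.
Kdr: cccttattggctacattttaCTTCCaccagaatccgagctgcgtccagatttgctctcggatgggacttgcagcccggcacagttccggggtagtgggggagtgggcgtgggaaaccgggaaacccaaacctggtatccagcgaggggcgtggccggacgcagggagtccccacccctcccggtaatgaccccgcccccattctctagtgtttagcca
Tie1: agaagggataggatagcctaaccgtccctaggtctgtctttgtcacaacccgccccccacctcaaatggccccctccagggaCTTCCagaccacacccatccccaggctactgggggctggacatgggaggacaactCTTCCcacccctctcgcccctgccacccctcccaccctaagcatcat

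The Kdr window held 1 GGAAG match on either strand, and 57.9% of windows trimmed to the same length held at least 1. The Tie1 window held 2, and 51.5% of windows of its length held at least 1. GCGTG, a core of hypoxia response elements, occurred 2 times in the Kdr window against 22.9% of windows with a match, and ACGTG, the other core, was not found in it. Neither hypoxia core was found in the Tie1 window. In the Vegfa window of 250 bases neither the ETS core nor a hypoxia core was found, whereas AGATA, a form of the GATA factor site, occurred 1 time against 27.8% of windows. AGATA was not found in the Kdr and Tie1 windows, and TGATA, the other form searched, was not found in any of the 3. Both strands were searched. A match of 5 letters is a description of these bases alone.

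The mRNA table held 18727255 to 25350886 fragments per library, and the libraries of a group differed by more than sampling noise in all 3 groups. The nerve label was checked against 7 markers of myelinating Schwann cells, whose summed level was 69649 to 102352 CPM (counts scaled to a common library total) in the controls, 3368 to 3849 at D4 and 10630 to 17031 at D7. All 7 fell at D4 and 4 at D7, against 10.7% and 9.02% of all tested genes called lower. Levels below are CPM after scaling with trimmed mean of M-values (TMM) factors, and a gene was called when its Benjamini-Hochberg adjusted p was below 0.05 in edgeR's quasi-likelihood test and its fold change was at least 2. Control vs D4 and control vs D7 share the control libraries and are not independent of each other.

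No gene of the 9 rose at either day, where 11.2% of all tested genes were called higher at D4 and 9.83% at D7. DESeq2 also called 0 higher, and at an unadjusted p below 0.05 there were 6 genes at each day, all lower. Kdr and Tek fell at D4, which is 2 of 9, where 10.7% of all tested genes were called lower and 21.9% in either direction. With 9 genes, a count of 2 is near the share called lower. At D7, 6 of 9 fell, namely Kdr, Flt1, Tek, Angpt2, Cdh5 and Vwf, where 9.02% of all tested genes were called lower and 18.8% in either direction. Tie1, Angpt1 and Vegfa were not called at any time. The median log2 fold change of the 9 genes was -0.92 at D4 and -1.12 at D7, against -0.04 and 0.01 over all tested genes. Without TMM factors the median of all genes moved to 0.25 and 0.31, and the genes called lower were 0 at D4 and 3 at D7. The count at D4 was 5 without Control library a, 1 without Control library b, 1 without D4 library a and 0 without D4 library b, and the count at D7 was 3 without Control library b and 2 without D7 library a. In both comparisons the injured libraries lay below the control libraries for Cdh5, Kdr, Flt1, Tek, Angpt2 and Vwf, that is 6 of 9 genes, against 39.4% of all tested genes at D4 and 34.7% at D7.

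**Figure D1:**
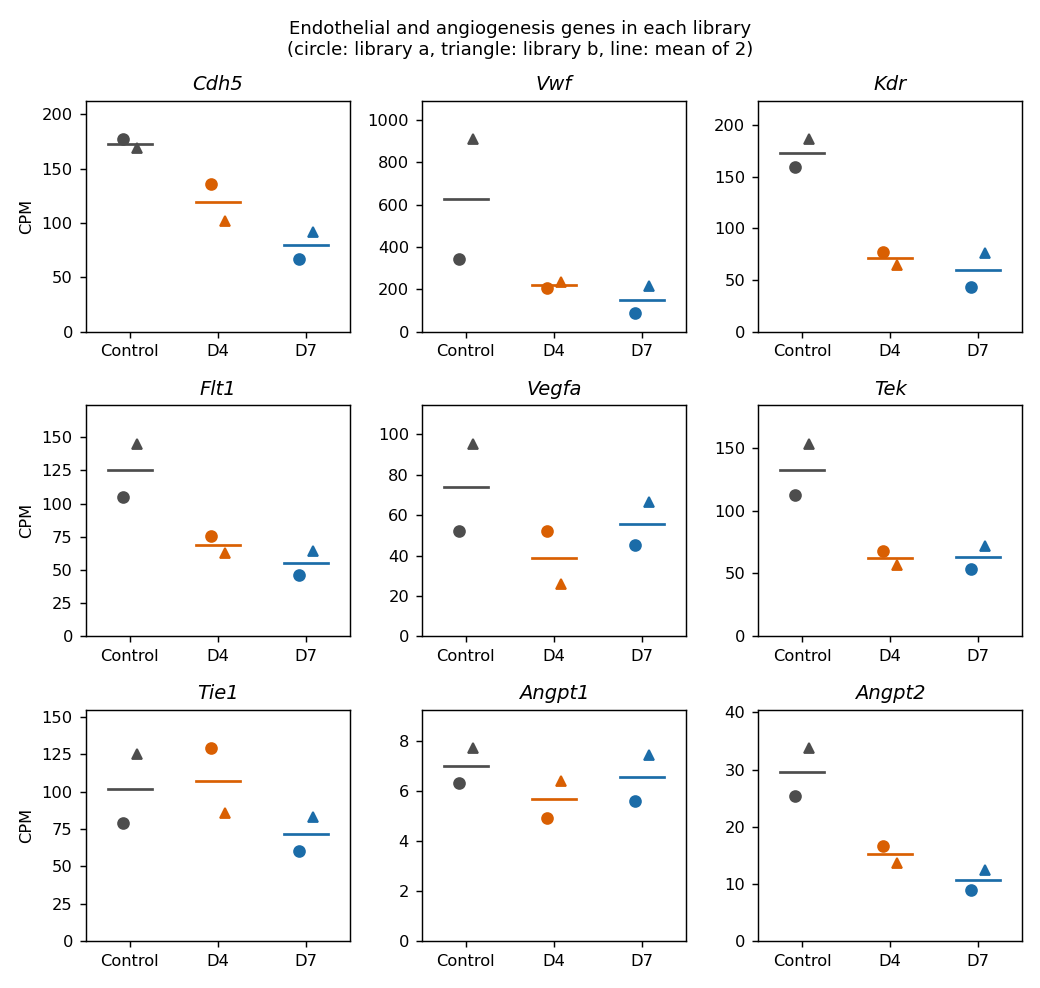
CPM (y axis, linear, from 0) of the 9 genes in control, D4 and D7 nerves, with a circle for library a, a triangle for library b and a line for the mean of 2. Cdh5, Kdr, Flt1, Tek, Angpt2 and Vwf lie lower in all 4 injured libraries than in both controls, whereas Tie1, Angpt1 and Vegfa overlap the controls.

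Gene and lncRNA positions from here on are those of Rnor_6.0 and cannot be compared with the GRCr8 positions of the upstream sequences. Cdh5 lies at chr19:1023683-1074365 of Rnor_6.0. Its level was 177 and 169 CPM in the control libraries, 136 and 102 CPM at D4, and 67.0 and 92.1 CPM at D7. The controls were close to each other, the D4 libraries lay below them, and the D7 libraries lay below both D4 libraries. The log2 fold change was -0.54 ± 0.19 (SE) at D4, which was not called (edgeR adjusted p = 0.0662). At D7 Cdh5 fell to 46.0% of the control level, with a log2 fold change of -1.12 ± 0.20 (edgeR adjusted p = 0.00734). Without D7 library a the log2 fold change was -0.88 and the call was lost.

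Vwf lies at chr4:158088505-158219523. Its level was 342 and 909 CPM in the control libraries, 209 and 235 CPM at D4, and 89.4 and 214 CPM at D7. The controls were far apart and Control library b was the highest of the 6, yet the injured libraries all lay below Control library a. The log2 fold change was -1.49 ± 0.55 at D4 (edgeR adjusted p = 0.0707), which was not called, and at D7 Vwf fell to 24.3% of the control level, with -2.04 ± 0.56 (edgeR adjusted p = 0.0330). The D7 call was the least secure of the 6: it was lost without Control library b (-1.18), without D7 library a (-1.51), without D4 library a (-2.04) and without D4 library b (-2.04), of which the last 2 enter only through the estimate of the spread, with edgeR adjusted p from 0.0668 to 0.118. At D4 Vwf was called without Control library a (-2.03), without D7 library a (-1.45) and without D7 library b (-1.49).

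Kdr, also known as VEGFR2, is the main signaling receptor for Vegfa and lies at chr14:34727623-34787183. Its level was 159 and 186 CPM in the control libraries, 77.5 and 64.8 CPM at D4, and 43.5 and 76.6 CPM at D7. All 4 injured libraries were well below the controls, and the D4 and D7 libraries overlapped each other. Kdr fell to 41.2% of the control level at D4, with a log2 fold change of -1.28 ± 0.27 (edgeR adjusted p = 0.0110), and to 34.8% at D7, with -1.52 ± 0.27 (edgeR adjusted p = 0.00753). The D7 call was kept when any 1 of the 6 libraries was left out. The D4 call was lost without D4 library a (-1.41, edgeR adjusted p = 0.0502) and without D4 library b (-1.15, edgeR adjusted p = 0.0798).

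Flt1, also known as VEGFR1, lies at chr12:9034308-9205905. Its level was 105 and 145 CPM in the control libraries, 75.4 and 62.8 CPM at D4, and 46.0 and 64.2 CPM at D7. The injured libraries were all below the controls, and those of D4 and D7 overlapped. At D4 the log2 fold change was -0.86 ± 0.22, which passed the adjusted p (edgeR adjusted p = 0.0231) but not the 2-fold limit. Flt1 fell at D7 to 44.0% of the control level, with -1.19 ± 0.22 (edgeR adjusted p = 0.00934). The D7 fold was below the limit without Control library b (-0.94) and without D7 library a (-0.94), whereas at D4 Flt1 was called without Control library a (-1.07).

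Vegfa, the ligand of both receptors, lies at chr9:17340341-17355681. Its level was 52.2 and 95.3 CPM in the control libraries, 52.3 and 25.7 CPM at D4, and 45.2 and 66.3 CPM at D7. The libraries of each group were far apart, and both injured groups overlapped the controls. The log2 fold change was -0.92 ± 0.42 at D4 (edgeR adjusted p = 0.126) and -0.40 ± 0.42 at D7 (edgeR adjusted p = 0.481). At D7, 2 SE on either side of the estimate ran from -1.24 to 0.44, so that a fall of 2-fold lay within the error. Without Control library b the D7 value was 0.092, that is on the other side of 0.

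Tek, the angiopoietin receptor also called TIE2, lies at chr5:113725717-113852799. Its level was 112 and 153 CPM in the control libraries, 67.7 and 56.6 CPM at D4, and 53.9 and 71.7 CPM at D7. The injured libraries lay below both controls, at about the same level on both days. Tek fell to 47.0% of the control level at D4, with a log2 fold change of -1.09 ± 0.21 (edgeR adjusted p = 0.00805), and to 47.4% at D7, with -1.08 ± 0.21 (edgeR adjusted p = 0.0105). Both values were close to the 2-fold limit. The D4 call was lost without Control library b (-0.85) and without D4 library b (-0.97), and the D7 call without Control library b (-0.83) and without D7 library a (-0.86).

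Tie1, at chr5:137294532-137321101, was not called in any comparison. Its level was 78.7 and 125 CPM in the control libraries, 129 and 85.8 CPM at D4, and 60.4 and 82.8 CPM at D7. The D4 libraries spanned the control range and the D7 libraries overlapped it at the low end. The log2 fold change was 0.08 ± 0.29 at D4 (edgeR adjusted p = 0.846) and -0.50 ± 0.30 at D7 (edgeR adjusted p = 0.223). The D4 value was on the other side of 0 without Control library a (-0.22) and without D4 library a (-0.24).

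Angpt1, the ligand that activates Tek, lies at chr7:81342280-81592206 and was the lowest of the 9. Its level was 6.34 and 7.72 CPM in the control libraries, 4.93 and 6.43 CPM at D4, and 5.63 and 7.47 CPM at D7. All groups overlapped. The log2 fold change was -0.30 ± 0.25 at D4 (edgeR adjusted p = 0.354) and -0.10 ± 0.25 at D7 (edgeR adjusted p = 0.775). Without TMM factors the D7 value was 0.19, on the other side of 0.

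Angpt2, the angiopoietin made largely by endothelium, lies at chr16:75966352-76016195. Its level was 25.3 and 33.7 CPM in the control libraries, 16.7 and 13.7 CPM at D4, and 8.97 and 12.5 CPM at D7. The groups followed each other without overlap, from the controls down to D7. At D4 the log2 fold change was -0.96 ± 0.22, which passed the adjusted p (edgeR adjusted p = 0.0162) and just missed the 2-fold limit. It was called without Control library a (-1.15). Angpt2 fell at D7 to 36.4% of the control level, with -1.46 ± 0.23 (edgeR adjusted p = 0.00498), and this call was kept when any 1 of the 6 libraries was left out.

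**Figure D2:**
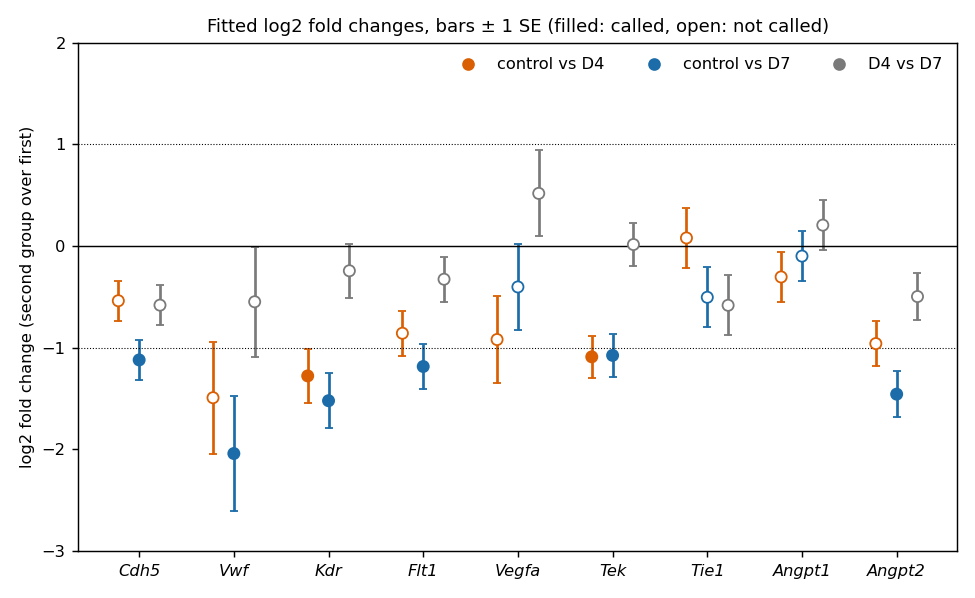
Fitted log2 fold changes (y axis) of the 9 genes for control vs D4, control vs D7 and D4 vs D7, with bars of 1 SE. Filled points are called and open points are not, and the filled ones are Kdr and Tek at D4 and the 6 genes lower at D7.

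Between the injured groups no gene of the 9 was called in D4 vs D7, where 2.18% of all tested genes were called in either direction, 1.68% higher and 0.494% lower at D7. DESeq2 called 0 as well. At an unadjusted p below 0.05 there was 1, Cdh5, with a log2 fold change of -0.58 ± 0.20 and an edgeR adjusted p of 0.141. The D7 libraries lay below both D4 libraries for 3 of 9 genes, Cdh5, Angpt2 and Tie1, against 29.1% of all tested genes, and above both for 0 of 9, against 31.5%. The estimate for Tek was 0.01 ± 0.21, with 2 SE on either side running from -0.40 to 0.43. For Flt1, Angpt2 and Vwf, called at D7 and not at D4, the difference between the days passed the adjusted p neither in edgeR nor in DESeq2. For Cdh5 it passed in DESeq2 (-0.62 ± 0.21, DESeq2 adjusted p = 0.0321), below the 2-fold limit, and not in edgeR.

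Levels were compared between genes per length, in the deposited FPKM values, which divide fragment counts by gene length and library total. In the control nerves Vwf was the highest of the 9 with 62.2 ± 40.7 FPKM (SD, n = 2), followed by Cdh5 with 30.6 ± 0.401 FPKM. Tek, Tie1, Kdr, Vegfa and Flt1 came next, between 25.4 and 15.7 FPKM, and each overlapped its neighbor in that order. Angpt2 with 10.6 ± 2.30 FPKM and Angpt1 with 3.25 ± 0.508 FPKM were the lowest and lay apart.

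At D4 the order began with Tie1 with 29.5 ± 8.32 FPKM, Vwf with 26.8 ± 2.27 FPKM and Cdh5 with 25.7 ± 5.18 FPKM, whose libraries overlapped. At D7 Tie1, Vwf, Cdh5, Vegfa and Tek, between 19.8 and 14.8 FPKM, overlapped from neighbor to neighbor, and Angpt2 with 4.72 FPKM overlapped Angpt1 with 3.72 FPKM. Tie1 thus came after Vwf, Cdh5 and Tek in the controls and before all other members in both injured groups, with overlap to the next gene each time.

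The ratio of a pair of genes within a library does not depend on the scaling of libraries. The ratio of Tie1 to Tek counts was 0.705 and 0.813 in the controls, 1.90 and 1.52 at D4, and 1.12 and 1.16 at D7. The groups were apart, with the highest ratio at D4, and the mean log2 ratio was higher by 1.17 at D4 and by 0.59 at D7 than in the controls. The ratio of Angpt2 to Angpt1 counts was 4.00 and 4.37 in the controls, 3.38 and 2.13 at D4, and 1.59 and 1.68 at D7. It was lower in each injured group, by a log2 difference of -0.64 at D4 and -1.36 at D7.

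The ratio of Flt1 to Kdr counts was 0.663 and 0.781 in the controls, 0.974 and 0.970 at D4, and 1.06 and 0.837 at D7. It was higher in the injured libraries than in both controls, and the D4 and D7 libraries overlapped. The ratio of Vegfa to Kdr counts was 0.328 and 0.512 in the controls, 0.674 and 0.396 at D4, and 1.04 and 0.865 at D7. The controls overlapped D4, and the D7 libraries lay above all others, with a log2 difference from the controls of 1.21. An exact two-sided permutation test of 2 against 2 libraries cannot give a p below 0.333, and it gave that value for each of these differences from control except that of Vegfa to Kdr at D4 (p = 0.667).

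**Figure D3:**
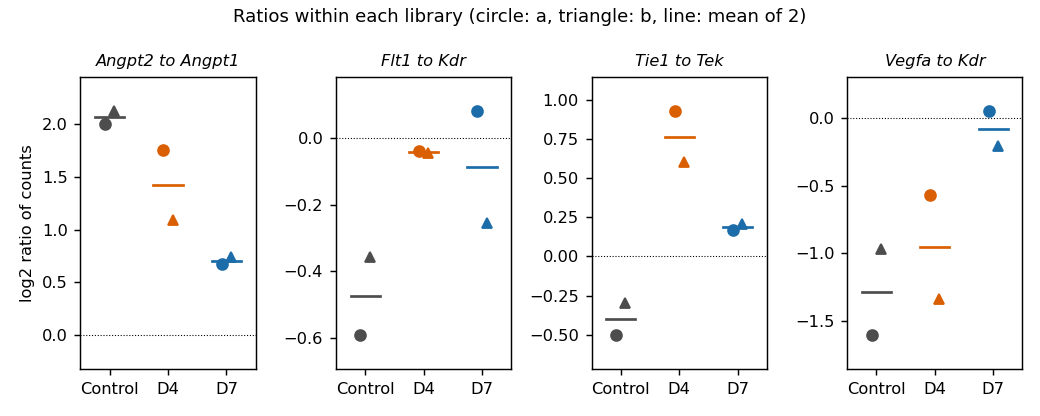
The log2 ratio of counts (y axis, with its own scale in each panel) of 4 gene pairs in each library, with a circle for library a, a triangle for library b, a line for the mean of 2 and a dotted line at equal counts. Tie1 to Tek is highest at D4, and Angpt2 to Angpt1 is lowest at D7.

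A further 26 genes of the endothelium were read as a list, and 0 rose at either day. At D4 7 of 26 fell, against 10.7% of all tested genes, and at D7 10 of 26 fell, against 9.02%. The list median was -0.70 at D4 and -0.95 at D7 on the log2 scale. Both injured libraries were below both controls for 20 genes at D4 and 22 at D7, against 39.4% and 34.7% of all tested genes. Without TMM factors the counts of fallen genes were 1 at D4 and 6 at D7, and they were 2 and 6 without Control library b. The D4 count was 1 without D4 library b, and the D7 count was 6 without D7 library a and 17 without D7 library b.

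Ecscr, an endothelial surface protein, had the largest fall in the list. Its level was 41.3 and 32.3 CPM in the control libraries, 9.60 and 7.09 CPM at D4, and 6.67 and 8.21 CPM at D7. All injured libraries were far below the controls. Ecscr fell by 2.14 ± 0.22 at D4 and by 2.31 ± 0.22 at D7 on the log2 scale (edgeR adjusted p = 0.000948 at D7). The other genes that fell on both days, named after their values were seen, were Tal1 (-1.25 and -1.25), a transcription factor of blood and endothelium, Cyyr1 (-1.11 and -1.02), Emcn, a sialomucin of capillaries and veins (-1.17 and -1.60), Ptprb, the phosphatase that acts on Tek (-1.23 and -1.60), and Mmrn2, a matrix protein of vessels (-1.17 and -1.62). The transcription factor Erg (-0.95 and -1.30) and the sphingosine receptor S1pr1 (-0.67 and -1.51) were called lower at D7 and not at D4. So were Myct1 (-1.05 and -1.68) and the receptor subunit Ramp2 (-0.82 and -1.27). At D4 Erg (edgeR adjusted p = 0.0378) and Ramp2 (edgeR adjusted p = 0.00183) missed only the 2-fold limit. The transcription factor Sox17 was called lower at D4 (-1.07). At D7 (-0.86, edgeR adjusted p = 0.0111) Sox17 missed only the 2-fold limit. In D4 vs D7, edgeR and DESeq2 called 0 of 26, and edgeR had 5 at an unadjusted p below 0.05. The other members of the list, more of them than were named as called, were not called on either day. Among them Fli1 (-0.37 and -0.80) passed the adjusted p on both days and missed only the 2-fold limit. At D7 Esam (-0.81), Robo4 (-0.88) and Adgrl4 (-0.89) also missed only that limit. The values were 0.46 and -0.16 for Eng, a coreceptor of the TGF-beta family, and 0.29 and 0.85 for the transcription factor Sox18.

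Of the 7 other ligands and receptors of the VEGF family, Pgf, a ligand of Flt1, was the only one called. Of all tested genes 10.7% were called lower at D4 and 9.02% at D7, and 1 of 7 is near those shares. Its level was 5.82 and 5.12 CPM in the control libraries, 2.71 and 1.37 CPM at D4, and 1.41 and 2.33 CPM at D7. The controls were the highest libraries. Pgf fell on both days, with -1.43 ± 0.41 on the log2 scale at D4 (edgeR adjusted p = 0.0334) and -1.55 ± 0.42 at D7 (edgeR adjusted p = 0.0311). The coreceptors Nrp1 (0.09 and -0.08) and Nrp2 (0.31 and 0.21) and the ligand Vegfb (-0.07 and -0.07) stayed uncalled. So did the lymphatic ligands Vegfc (0.14 and -0.83) and Figf, also named Vegfd (0.11 and -1.21), and their receptor Flt4 (-0.92 and -1.60).

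Of 10 genes of sprouting and tip cells, 2 rose and 1 fell at D4, where 11.2% of all tested genes were called higher and 10.7% lower. At D7, 1 rose and 2 fell, against 9.83% and 9.02%. Counts this small are near those shares. Cxcr4, a chemokine receptor of tip cells that leukocytes also express, had 5.10 and 3.01 CPM in the control libraries, 27.7 and 16.4 CPM at D4, and 28.8 and 27.0 CPM at D7. Every injured library was above both controls, with values of 2.43 ± 0.34 at D4 and 2.77 ± 0.34 at D7 on the log2 scale (edgeR adjusted p = 0.00238 and 0.00208). All 8 macrophage and leukocyte markers rose at D4 and 7 of 8 at D7, and their part in the Cxcr4 values was not tested.

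Esm1, a secreted proteoglycan of tip cells, had 7.47 and 4.52 CPM in the control libraries, 15.7 and 20.1 CPM at D4, and 6.01 and 12.3 CPM at D7. It was above the controls at D4, and the D7 libraries overlapped them. Esm1 rose at D4, with a log2 fold change of 1.57 ± 0.40 (edgeR adjusted p = 0.0217), and at D7 its value was 0.60 ± 0.40 (edgeR adjusted p = 0.275). Pdgfb, the endothelial ligand that recruits pericytes, fell on both days (-1.07 and -1.10), and the Notch ligand Dll4 was at -0.90, below the 2-fold limit, at D4 and fell at D7 (-1.15). Apln, Aplnr, Unc5b, Kcne3, Nid2 and Angptl2 were not called. Of these, Angptl2 at D4 (0.68, edgeR adjusted p = 0.00359) and Nid2 at D7 (0.65, edgeR adjusted p = 0.0224) were higher and missed only the 2-fold limit.

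**Figure D4:**
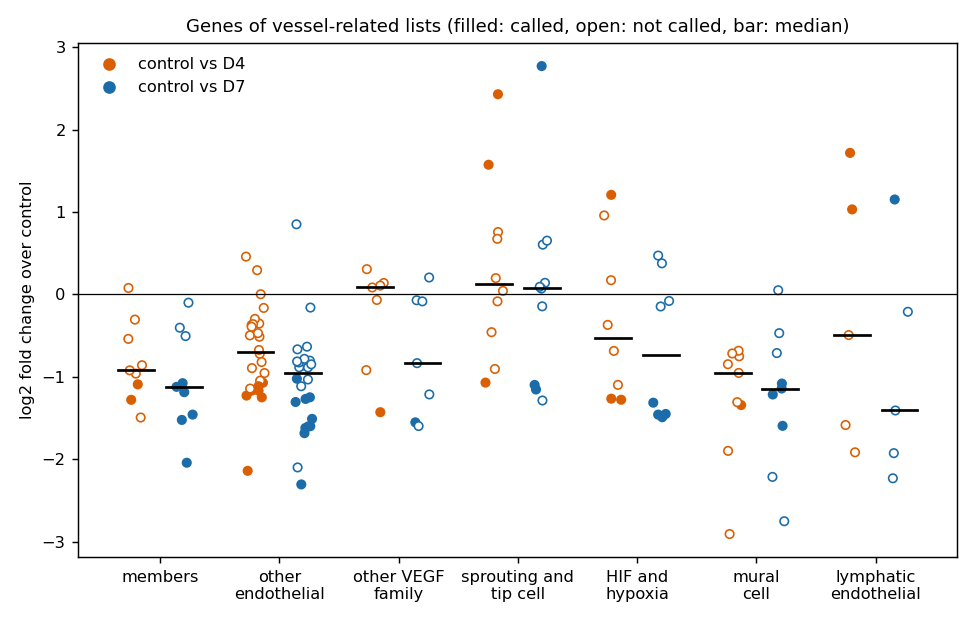
Log2 fold change over control (y axis) of each gene in the vessel-related lists at D4 and D7, filled where called and open where not, with a bar at the list median. The 9 genes and the 26 other endothelial genes lie mostly below 0, whereas the sprouting and tip cell list holds genes on both sides, with Cxcr4 the highest.

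Hypoxia-inducible factors (HIFs) control Vegfa and Flt1 in other settings, and 8 of 10 listed HIF factors and targets were found. Of these, 1 rose and 2 fell at D4, against 11.2% and 10.7% of all tested genes, and 4 fell at D7, against 9.02%. The D4 counts are near those shares. Adm, a vasodilator peptide, had 8.40 and 9.65 CPM in the control libraries, 21.7 and 20.0 CPM at D4, and 9.44 and 14.0 CPM at D7. Only the D4 libraries were well above the controls, and Adm rose at D4 with a log2 fold change of 1.21 ± 0.21 (edgeR adjusted p = 0.00594). The targets Bnip3 (-1.28 and -1.49) and Pdk1 (-1.26 and -1.45) fell on both days, and Egln3 (-1.31) fell at D7. Hif1a was at 0.96 ± 0.13 at D4, with an edgeR adjusted p of 0.00240 and below the 2-fold limit.

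Epas1, the HIF subunit that is abundant in endothelium, had 644 and 828 CPM in the control libraries, 477 and 438 CPM at D4, and 256 and 280 CPM at D7. Its libraries stepped down from group to group without overlap. Epas1 was at -0.68 ± 0.14 at D4 and fell at D7 with -1.46 ± 0.15 (edgeR adjusted p = 0.00107).

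Markers of other tissue in the samples were read beside the endothelial genes. For the marker lists that follow, 10.7% of all tested genes were called lower and 11.2% higher at D4, and 9.02% and 9.83% at D7. Single calls in lists of this size are near those shares. The summed CPM of the 9 genes was 73.4% and 127% of the control mean in the control libraries, 53.4% and 45.3% at D4, and 29.2% and 47.8% at D7. D7 library a was the lowest. Vwf was the largest part of that sum in every library, with 342 and 909 CPM in the control libraries. Cdh5 alone of the 9 was higher in Control library a than in Control library b (177 and 169 CPM). The 7 adipocyte markers were at 110% in Control library a and 90.3% in Control library b, the opposite order to the sum of the 9 genes. They were at 39.8% and 19.6% at D4 and at 4.43% and 44.3% at D7, so that D7 library a was the lowest there too. Of the 6 adipocyte markers tested, 0 were called at D4, with 1 at an unadjusted p below 0.05, and 1 fell at D7, Lipe. Pnpla2 was listed at 0 in all 6 libraries. The 8 platelet and red cell markers were at 67.6% and 61.7% at D4, and at 9.30% in D7 library a and 53.4% in D7 library b. That sum was mostly the red cell genes Hba1 and Hbb, with 439 and 465 CPM and 196 and 210 CPM in the control libraries. Of the 5 tested, Itga2b fell (-1.44) and Pf4 rose (2.06) at D4, and Alas2 fell (-2.00) and Pf4 rose (1.96) at D7.

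Mural cell markers, which mark pericytes and vascular smooth muscle, were at 41.4% in Control library a and 159% in Control library b, 30.2% and 31.9% at D4, and 21.5% and 36.5% at D7. Control library b was high through the smooth muscle genes Myh11, with 298 and 2622 CPM in the control libraries, and Acta2, with 241 and 1722 CPM. That library also had the highest Vwf. Of the 9 mural markers, Rgs5, a pericyte marker, fell at D4, and Rgs5, Abcc9, Notch3 and Cspg4 fell at D7. These are 1 of 9 and 4 of 9, against 10.7% and 9.02% of all tested genes, and the D4 count is near its share. The median log2 fold change of the mural markers was -0.95 at D4 and -1.14 at D7, beside -0.92 and -1.12 for the 9 endothelial and angiogenesis genes. Both injured libraries lay below both controls for 8 of 9 mural markers at D4 and 6 of 9 at D7, against 39.4% and 34.7% of all tested genes. Skeletal muscle markers summed to 241% of the control mean in D4 library a and to 19.7% in D4 library b, and 1 of the 7 tested, Myh7, fell on both days.

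Macrophage and leukocyte markers summed to 384% and 385% at D4 and to 247% and 320% at D7, and the 6 mitosis genes, all of which rose on both days, to 948% or more in every injured library. Fibroblast markers were at 68.1% and 62.8% at D4 and at 48.5% and 54.5% at D7, a sum that was mostly Col1a1 (24900 and 26451 CPM in the control libraries). Of 5 tested, Col1a1 was called lower at D7 (-1.05). Pdgfra had the other sign, at 0.68 ± 0.11 at D4 and 0.49 ± 0.11 at D7 (edgeR adjusted p = 0.00474 and 0.0187), below the 2-fold limit. Dcn was at -0.56 and -0.59, Lum at -0.05 and -0.21, and Pi16 at 0.31 and 0.12, and Col1a2 was listed at 0 in all 6 libraries. The part of these other tissues in the values of the endothelial genes was not tested. Without D7 library a, 2 of 9 genes were called lower at D7, Kdr and Angpt2.

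**Figure D5:**
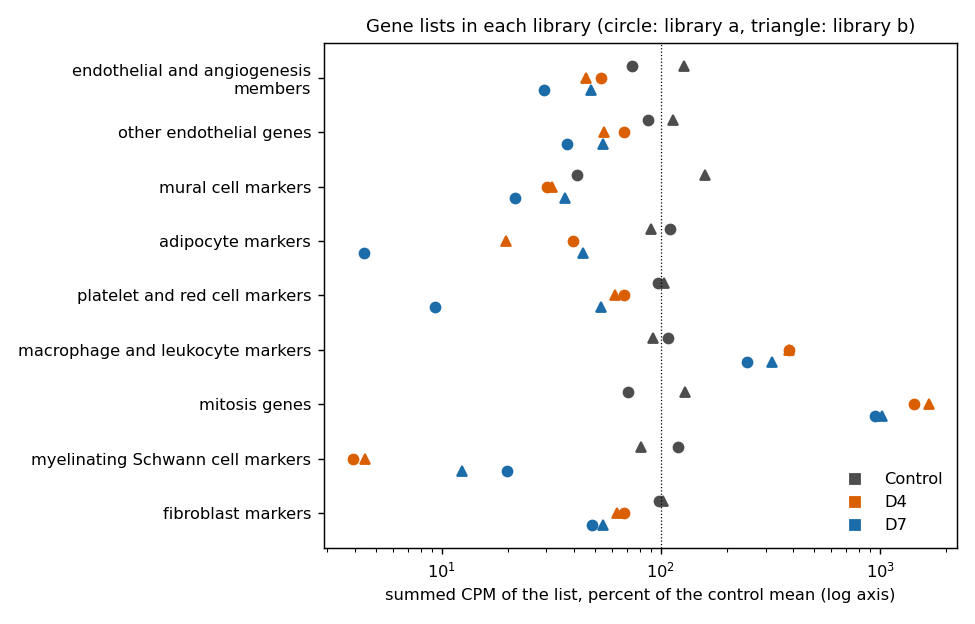
Summed CPM of each gene list shown as a percent of its control mean (x axis, log scale), with a circle for library a, a triangle for library b and a color for each group. The 9 genes and the 26 other endothelial genes lie below 100% in all injured libraries. Adipocyte and blood cell markers are lowest in D7 library a, and macrophage and mitosis genes lie above 100% in all injured libraries.

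Long noncoding RNAs (lncRNAs) were read at the loci of the 9 genes because the study paired lncRNAs with genes within 10 kb. The study also paired lncRNAs with distant mRNAs by sequence match, and those pairs were not examined here. There were 15 lncRNA transcripts within 10 kb, 12 of which overlapped the gene, and 8 were tested. None was called at D4, at D7 or in D4 vs D7, where 10.1%, 5.79% and 0.249% of the 14077 tested lncRNA transcripts were called in edgeR. At an unadjusted p below 0.05 there were 0, 1 and 0, and no other tool was run on the lncRNAs. No lncRNA was found at Cdh5, Kdr or Angpt2.

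The lncRNA transcripts that follow were named after their values were seen. NONRATT007254.2, which lies inside Flt1 at chr12:9128299-9129029, had 78 and 68 counts in the control libraries, 57 and 52 at D4, and 39 and 37 at D7. It was lower in every injured library, and its log2 fold change at D7 was -1.03 ± 0.24 (edgeR adjusted p = 0.0683). NONRATT029217.2, inside Vegfa at chr9:17350276-17354890, had 230 and 208 counts in the control libraries, 239 and 6 at D4, and 199 and 12 at D7. It was near the control level in library a of each injured group and near 0 in library b. Whether counting used the strand was not stated, so that fragments of a lncRNA inside a gene and of the gene cannot be told apart.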

How the data were processed

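Fragment counts per gene and per lncRNA transcript were deposited as whole numbers; the authors mapped reads with Hisat2 2.0.4 to the rat genome (Rnor_6.0), with ribosomal reads removed, and counted with Stringtie 1.3.0. The authors also deposited FPKM values, which follow the library totals with no TMM factor and were used only to compare levels between genes.

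Counts of 6 libraries were fitted in 1 model with edgeR 4.0.16 (R 4.3.3; filterByExpr, TMM, quasi-likelihood test), for mRNAs and lncRNAs separately, and p-values were adjusted by Benjamini-Hochberg over every feature in the fit. Standard errors were taken as the size of the log2 fold change over the root of the F statistic. Library totals were 18727255 to 25350886 fragments for mRNAs and 2694777 to 3043817 for lncRNAs, and TMM factors ran from 0.863 to 1.08. Listed genes with too few counts were left out of the tests.

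The members, gene lists and tests were chosen with earlier results of these data known. Named in the text were all members, every gene of a list of at most 10 that the text needed, the largest called change in a longer list, and the 5 genes most like Cdh5. The other names from the list of 26 and the lncRNAs were added after their values were seen. The alternatives were fits of only the groups compared, a replicate block, DESeq2 1.42.0, no TMM, RLE size factors, other filters, a tested 2-fold change, no fold limit and leaving out each library. The procedure was also run on counts simulated with the spread and library scaling estimated from these data, so that run does not check either of them. Promoter windows came from RefSeq (GRCr8), trimmed to the bases before the annotated gene.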

Additional observations from a re-analysis of the deposited data

How the results depend on the processing

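The 2 members lower at D4 became 0 without TMM factors, 0 when a 2-fold change was itself tested (glmTreat), 4 with no fold limit and 0 to 5 on leaving out a library. The 6 lower at D7 became 3, 0, 6 and 2 to 6. Of the other endothelial genes, the 7 lower at D4 became 1, 1, 10 and 1 to 8, and the 10 lower at D7 became 6, 1, 15 and 6 to 17; 0 to 1 rose at D7 and 0 to 2 fell in D4 vs D7 on leaving out a library. Without TMM factors the median of all genes moved to 0.25 at D4 and 0.31 at D7. A group left with 1 library was assumed to vary like the others.

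Libraries of the same letter shared only a letter (correlations of deviations of 0.01, 0.19 and -0.13), and the replicate block gave 3, 6 and 0 members called lower in the 3 comparisons, adding Vwf at D4 (-1.30, edgeR adjusted p = 0.0268). In the fit of only the groups compared Vwf at D7 was not called (-2.04, edgeR adjusted p = 0.0672).

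Of 417 values under the alternatives, 368 kept direction and call, 27 lost the call, 8 gained it and 14 changed sign. The 417 are values of single genes and, for a small part, group differences of the within-library ratios taken in FPKM. Those ratio differences could not change, because gene length shifts a log2 ratio equally in every library. None of the values that changed sign was called. They were Tek in D4 vs D7 (-0.00032 in the 2-group fit, -0.0084 with the replicate block, -0.026 in DESeq2, -0.022 with RLE) and Angpt1 at D7 (0.19 without TMM). On leaving out a library they were Tek in D4 vs D7 (-0.21 to 0.20), Kdr in D4 vs D7 (-0.71 to 0.10), Angpt1 at D7 (-0.32 to 0.12) and in D4 vs D7 (-0.013 to 0.41), Tie1 at D4 (-0.24 to 0.45) and Vegfa at D7 (-0.78 to 0.092). The causes were not tested. With 2 rats per group, a missed call does not show equal levels.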

Other observations

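The genes whose log2 CPM followed Cdh5 most closely over the 6 libraries, among 13326 genes with a mean of at least 1 FPKM, were Tmem252 (Pearson r = 0.997), Slfn5 (0.995), Isoc2b (0.993), Als2cl (0.993) and Ablim3 (0.991). These are descriptions over libraries that share groups, and 163 genes had an r above 0.95. Slfn5 had 306 and 306 CPM in the control libraries, 222 and 165 CPM at D4, and 108 and 161 CPM at D7, stepping down from group to group. Among the members, r with Cdh5 was 0.952 for Angpt2, 0.926 for Flt1, 0.924 for Kdr, 0.834 for Vwf, 0.828 for Tek, 0.670 for Tie1, 0.417 for Vegfa and 0.183 for Angpt1.

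Of 5 markers of lymphatic endothelium, 2 rose at D4 and 1 at D7, against 11.2% and 9.83% of all tested genes called higher, and 0 fell. Their summed CPM was 97.1% and 152% of the control mean at D4, and 41.9% and 88.8% at D7. Pdpn, a mucin that fibroblasts and perineurial cells also express, had 13.9 and 15.9 CPM in the control libraries, 44.2 and 53.5 CPM at D4, and 26.8 and 39.2 CPM at D7. It was above the controls in every injured library (1.72 ± 0.21 and 1.15 ± 0.21 on the log2 scale). Lyve1, which some macrophages also express, rose at D4 (1.03 ± 0.29). Prox1, the defining transcription factor of lymphatic endothelium, had 7.21 and 44.1 CPM in the control libraries, 3.86 and 13.1 CPM at D4, and 3.38 and 10.1 CPM at D7, higher in library b than in library a of each group, and was not called. Mmrn1 (-1.92 and -2.23) and Ccl21 (-0.49 and -1.41) had the other sign at D4 and D7 and were not called, with edgeR adjusted p from 0.228 to 0.740.

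Pf4, a chemokine of platelets that macrophages also express, rose on both days, with 2.63 and 2.77 CPM in the control libraries, 11.9 and 10.6 CPM at D4, and 9.39 and 11.6 CPM at D7. The platelet genes Gp1ba, Gp9 and Ppbp had 0 to 5 counts in each library.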
